A study of Mus musculus with 18 samples.

Results

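The mRNAs of nuclear import receptors, export receptors, the Ran cycle and nucleoporins were measured in RNA that came down with the kinesin Kif5A from mouse axoplasm. Members were chosen by gene name: names that start with Kpna, Tnpo, Xpo or Ranbp, names that start with Ipo or Nup followed by a digit, and Ran, Rangap1, Rcc1, Cse1l and Nutf2. The rule found 45 genes among the 15552 gene names of the deposited tables, with 44 in the sciatic nerve table and 44 in the dorsal root table. Of these, 43 stood in both tables, while Tnpo1 was found for sciatic nerve alone and Ranbp3l for dorsal root alone. Rangap1, Rcc1 and Nup62 were not analysed here.

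All 18 libraries came from C57B6 mice with no mutant allele named, and each of 6 groups had 3 libraries. The groups were Kif5A immunoprecipitate, rabbit IgG precipitate (the isotype control) and input axoplasm of sciatic nerve (SN), and the same 3 fractions of dorsal root (DR). Each biological repeat pooled 5 animals. Precipitates were made from about 200 ug of lysate with 10 ug of antibody for 3 h, and libraries with the SMART-Seq v4 kit, which amplifies full-length cDNA by PCR. Age and sex of the animals are not stated in the labels. Kif5A is a heavy chain of kinesin-1, a motor that walks on microtubules towards the axon tip. Axoplasm pressed from whole nerve also carries RNA of glia and other cells, so more RNA per cell and more cells of a type cannot be told apart.

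Importin alpha proteins (Kpna genes) bind the nuclear localisation signal of a cargo and pair with importin beta (Kpnb1), while other importins and transportins bind cargo directly. Exportins carry cargo out of the nucleus together with Ran bound to GTP, and Nutf2 (NTF2) brings Ran back in. Nucleoporins build the pore through which these receptors pass. In peripheral axons, importins are also known as carriers of injury signals towards the cell body, and importin beta mRNA is known to be translated locally there.

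The members were counted through 57 transcripts in each table, and these were not always coding mRNAs. Of those listed for SN, 44 were annotated as protein coding, 8 as retained intron and 5 as processed transcripts without a coding frame; for DR the counts were 44, 6 and 7. Nup35, Nup88, Xpo6 and Tnpo3 were counted through retained-intron transcripts alone in both tissues. Ipo4 was counted through the retained-intron Ipo4-207 in SN and through the coding Ipo4-201 in DR. Because this decides what a count of these genes stands for, exon-intron boundaries that lie inside an exon of such transcripts are shown, with 12 exon bases followed by 18 intron bases and the first 2 intron bases in capitals. They were read from GENCODE M21 transcripts (GRCm38), with the intron taken from the gene's longest coding transcript. The Nup35 boundary lies at chr2:80656066-80656095 on the plus strand. The other 4 lie on the minus strand, that of Nup88 at chr11:70944094-70944123, that of Xpo6 at chr7:126120339-126120368, that of Tnpo3-208 (SN) at chr6:29582148-29582177 and that of Tnpo3-203 (DR) at chr6:29586020-29586049.
Nup35-204: tgtatagataaaGTaagttgtgggtgattt
Nup88-204: gccatcaaacagGTaagaatgggtgcagta
Xpo6-211: cctcattgatgtGTaagtaaagagtagtaa
Tnpo3-208: tttgaggtcttgGTaagtaaggctgcacct
Tnpo3-203: gtatctttattgGTaggtttgaaatagtca

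All 5 windows run from exon into an intron that begins with GT. The listed Nup35 and Nup88 transcripts hold the whole of that intron inside an exon, while those of Xpo6 and Tnpo3 run into its start and do not hold all of it. Values of Nup35, Nup88, Xpo6, Tnpo3 and, in SN, Ipo4 are counts assigned to retained-intron transcripts; how reads shared with coding transcripts were assigned is not stated.

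Libraries held between 11584418 and 22580824 counts in named rows. IgG precipitates stood apart in missing genes: 8.19% to 14.5% of the genes of a table had no count in an IgG library, against 0.974% to 3.17% in Kif5A and input libraries. Kif5A replicate 3 stood apart from the other Kif5A libraries in nuclear-retained RNA (Malat1 and 3 like genes), with 8435 CPM in SN and 13529 CPM in DR against 27222 to 52459 CPM in the other 4. Those RNAs summed to 22486 to 46152 CPM in IgG precipitates and 1995 to 17560 CPM in inputs. Replicate 3 was also the lowest library among the inputs of each tissue (1995 CPM in SN and 2702 CPM in DR). The same held among DR IgG precipitates (28840 CPM), while replicate 1 was lowest among SN IgG precipitates. The part of these RNAs in the results below was not tested. Of 10 sensory neuron and axon markers, 7 were listed for SN and 9 for DR, and they summed to 895 to 2128 CPM in SN Kif5A precipitates, 871 to 1778 CPM in SN IgG precipitates and 1176 to 3707 CPM in SN inputs; in DR the ranges were 1300 to 2860, 1268 to 2173 and 2581 to 3357 CPM for the same fractions. All 6 myelinating Schwann cell markers were present, summing to 3505 to 25115 CPM over the 18 libraries, with replicate 3 the highest in each fraction of both tissues. All 5 adipocyte markers were present in SN, at 1740 to 12274 CPM in Kif5A precipitates and 11256 to 23981 CPM in IgG precipitates. In SN inputs they summed to 857 to 3584 CPM, and they were lowest in replicate 3 in each SN fraction. Their part in the results was likewise not tested. Kif5a mRNA itself, from the gene of the precipitated protein, had 13.3, 20.1 and 54.5 CPM in SN Kif5A precipitates against 4.68, 6.34 and 6.32 CPM in SN IgG precipitates. The antibody binds protein, so this level checks no label. In DR it had 123, 177 and 106 CPM in Kif5A precipitates against 67.6, 20.0 and 144 CPM in IgG precipitates, and the groups overlapped.

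CPM of single genes and of the members is a count scaled to the library's total, with TMM factors over the 9 libraries of a tissue. The sums of nuclear-retained RNAs and cell type markers above were scaled to the library's total alone, without these factors. The factors ran from 0.846 in a DR input to 1.17 in a DR Kif5A precipitate, so those sums and the other CPM values are not on 1 scale. The members together made up 1502 to 1583 CPM in SN Kif5A precipitates, 1416 to 2096 CPM in SN IgG precipitates and 1494 to 1622 CPM in SN inputs. In DR they made up 1477 to 1943 CPM in Kif5A precipitates, 1629 to 1904 CPM in IgG precipitates and 1597 to 1747 CPM in inputs. The 3 fractions overlapped in both tissues, so the summed level of transport mRNAs did not separate them.

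Replicates of the IgG precipitates scattered most. Over members with a mean of at least 5 CPM in the group, the median coefficient of variation between the 3 libraries was 20.8% in SN Kif5A precipitates (33 members), 54.5% in SN IgG precipitates (33 members) and 27.4% in SN inputs (32 members). In DR it was 27.2% in Kif5A precipitates (34 members), 56.6% in IgG precipitates (32 members) and 19.8% in inputs (34 members). A ratio to IgG thus carries a wider error for these genes than a ratio to input.

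In input axoplasm, levels were compared between genes as CPM per kb of counted transcript. Nutf2 was highest in both tissues, with 91.6 ± 34.5 CPM per kb in SN and 119 ± 16.8 in DR (SD, n = 3 each). Ranbp9, a scaffold protein named for an early report of Ran binding, came next at 46.6 ± 4.19 CPM per kb in SN and 52.1 ± 0.739 in DR, below every Nutf2 library. In SN the libraries of Ranbp9 (41.9 to 50.0) overlapped those of Ranbp3 (20.5 to 51.6), so their order there is not separated. Among the importin alphas, Kpna3 had 26.6 ± 2.06 in SN and 29.0 ± 3.33 in DR, and Kpna4 had 24.0 ± 8.29 in SN and 22.7 ± 1.70 in DR. The neighbours Ranbp3, Kpna3, Ranbp1 and Kpna4 did not separate beyond their spread in SN. Kpna2, the importin alpha best known from dividing cells, had 0.317 ± 0.465 CPM per kb in SN and 0.187 ± 0.0853 in DR. It was counted through 1 of its 5 coding transcripts, so these values cover the listed transcript only. Its SN input counts were 2, 1 and 31, so the SN mean rests mostly on replicate 3.

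Importers of the beta family spanned a wide range. Ipo11 had 20.0 ± 3.13 CPM per kb in SN input and 20.1 ± 4.98 in DR input, and Ipo5, which carries ribosomal proteins and histones, had 19.9 ± 2.88 in SN and 17.5 ± 3.11 in DR. Ipo7 was lower, at 1.84 ± 1.06 in SN and 2.46 ± 0.715 in DR. Among exporters, the tRNA carrier Xpot led with 16 ± 2.84 in SN and 15.2 ± 1.84 in DR, followed by Cse1l (CAS), which returns importin alpha to the cytoplasm, with 10.5 ± 2.30 in SN and 11.3 ± 0.678 in DR. Xpo1 (CRM1), the general exporter of proteins, was counted through 1 of its 6 coding transcripts and reached 0.264 ± 0.151 in SN and 0.429 ± 0.139 in DR; that value covers the listed transcript only. Of the nucleoporins, the nuclear-side Nup153 and Nup50 were highest, at 13.0 ± 2.34 and 9.95 ± 1.03 in SN and 14.2 ± 2.52 and 8.09 ± 1.88 in DR. In DR the libraries of Nup50 (6.82 to 10.3) overlapped those of the next nucleoporin, Nup54 (4.37 to 9.09), so their order there is not separated.

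**Figure D1:**
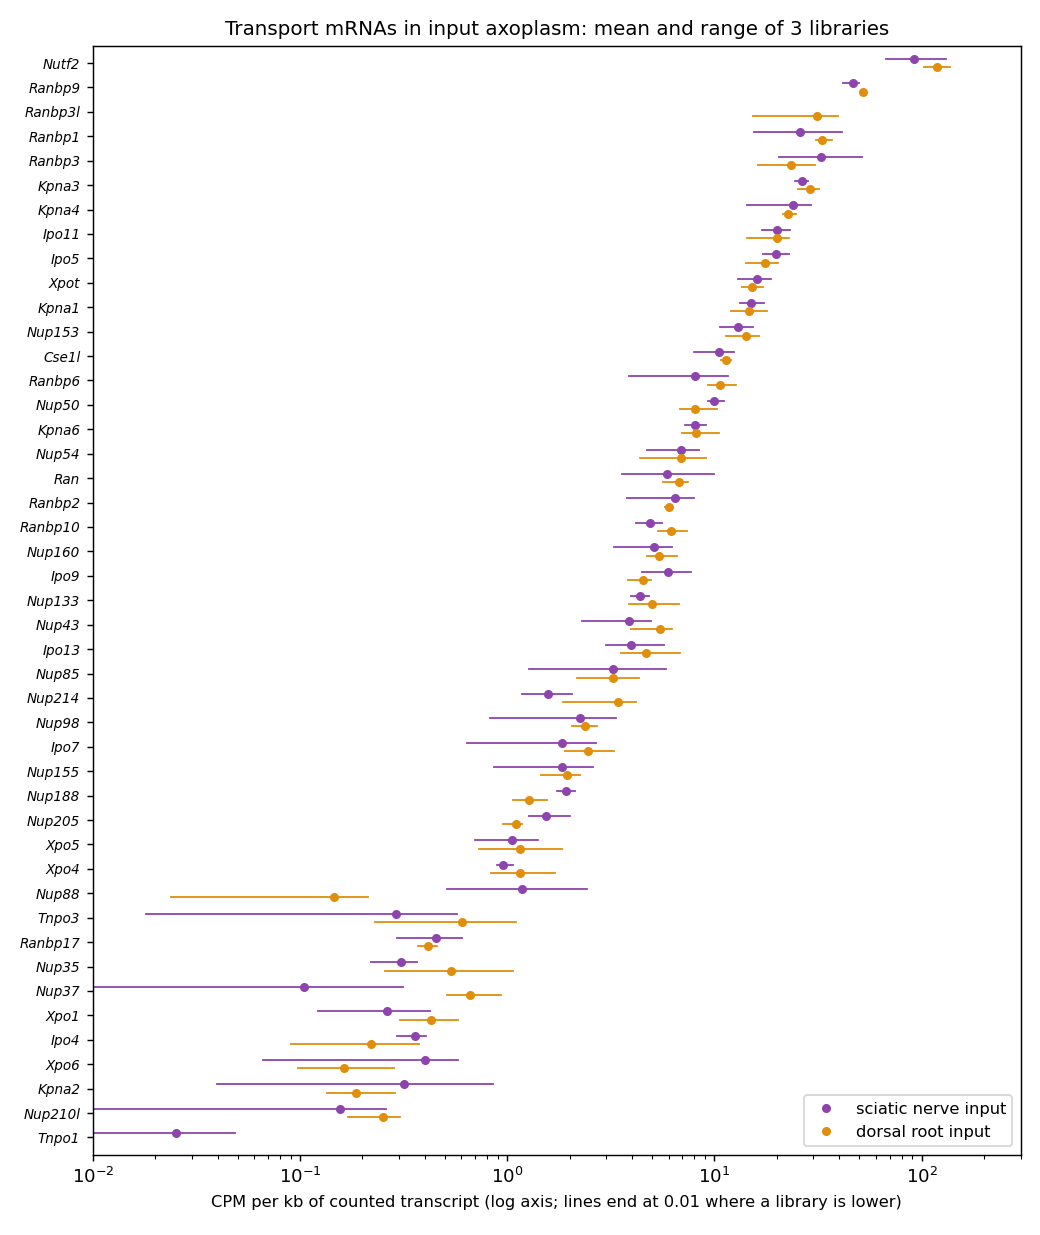
Level of each member in input axoplasm as CPM per kb of counted transcript on a log axis, with the mean (point) and range (line) of 3 libraries for sciatic nerve and dorsal root. Nutf2 is at the top in both tissues, at 91.6 and 119 CPM per kb.

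The inputs of the tissues were compared over transcripts listed for both. No member passed the threshold (edgeR quasi-likelihood test, Benjamini-Hochberg adjusted p under 0.05) of 38 tested, while 503 of all 12215 genes did, or 4.12%. At an unadjusted p under 0.05 there were 0 members, against 14.6% of all genes, and DESeq2 also called 0, against 1061 of all genes (8.69%). The median log2 ratio of SN over DR was 0.02 over the members and 0.06 over all genes. For the 24 members with a mean of at least 10 CPM in both inputs, the log2 ratio lay between -0.28 (Ranbp6) and 0.60 (Ranbp3), with 95% intervals that reached -1.17 (Ranbp6) and 1.47 (Ranbp3).

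The smallest p-values in this comparison belonged to Ipo9 and Nup50 on the positive side, with log2 ratios of 0.52 ± 0.28 and 0.42 ± 0.26 (SE; edgeR adjusted p = 0.469 and 0.555). On the negative side they belonged to Nup35 and Xpo1, with -0.68 ± 0.71 and -0.57 ± 0.61 (adjusted p = 0.776 and 0.785). Without SN input replicate 3, 5 members passed, and the genes passing rose to 2538. With all libraries 503 of 12215 genes and 0 of 38 members had passed. The member count thus rose along with that of all genes and is no result about the members. The Nup35 ratio was 0.29 without DR input replicate 2. Kif5a differed between these inputs, with a log2 ratio of -2.04 (adjusted p = 0.0192).

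The comparison of Kif5A with IgG precipitates asks which mRNAs come down with the motor beyond unspecific binding. In SN, 0 of 42 members passed, as did 0 of all 12594 genes (0%), in edgeR's quasi-likelihood test. Before adjustment, p was under 0.05 for 3 higher members and 1 lower one, and for 548 higher and 306 lower genes of all, which made 9.52% of the members and 6.78% of all genes. DESeq2 called 1 member, Nup210l, and 264 genes (2.1%). Nup210l passed the filter on low counts through its Kif5A libraries alone, so this call is not an even test. The members' median log2 ratio of Kif5A over IgG was -0.07, and that of all genes was -0.04.

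In DR, 0 of 40 members and 0 of 13124 genes (0%) passed in edgeR's test, and the unadjusted p was under 0.05 for 1 higher and 0 lower members and for 517 higher and 254 lower genes of all, which made 2.5% of the members and 5.87% of all genes. DESeq2 called 1 member, Nutf2, and 193 genes (1.47%). The members' median log2 ratio was -0.02 and that of all genes -0.01. About as many members lay above 0 as below, 21 of 42 in SN and 19 of 40 in DR.

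Nutf2, the import carrier of Ran, had the smallest p of the members in DR. It had 158, 134 and 132 CPM in DR Kif5A precipitates, against 32.1, 32.8 and 62.7 CPM in DR IgG precipitates; input held 110, 97.6 and 129 CPM. Every Kif5A library lay above every IgG library and every input library, and every IgG library lay below input. The log2 ratio of Kif5A over IgG was 1.79 ± 0.37 (SE), with an unadjusted p of 0.00133 and an edgeR adjusted p of 0.272. The smallest adjusted p of all genes had the same value. The adjustment gives tied values to genes with smaller unadjusted p, so this does not rank Nutf2 first among all genes. DESeq2 gave 1.75 with an adjusted p of 0.00148. Over all alternatives the adjusted p ran from 0.00148 to 0.732, and leaving out single libraries kept the ratio between 1.62 and 2.19. The authors' deposited table lists 1.83 as the log2 fold change of Nutf2's transcript and 0.000157 as its false discovery rate.

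In SN the groups overlapped for Nutf2, with 57.6, 72.4 and 87.8 CPM in Kif5A precipitates, 47.7, 114 and 47.5 CPM in IgG precipitates and 63.8, 72.5 and 124 CPM in inputs. The log2 ratio of Kif5A over IgG there was 0.10 ± 0.44. The difference between the tissues, SN minus DR, was -1.68 ± 0.58, with an edgeR adjusted p of 0.570, so the tissues were not shown to differ. Against input, Nutf2 had a DR ratio of 0.33 ± 0.22 for Kif5A (adjusted p = 0.381) and of -1.36 ± 0.34 for IgG (adjusted p = 0.105). Neither ratio passed the threshold.

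**Figure D2:**
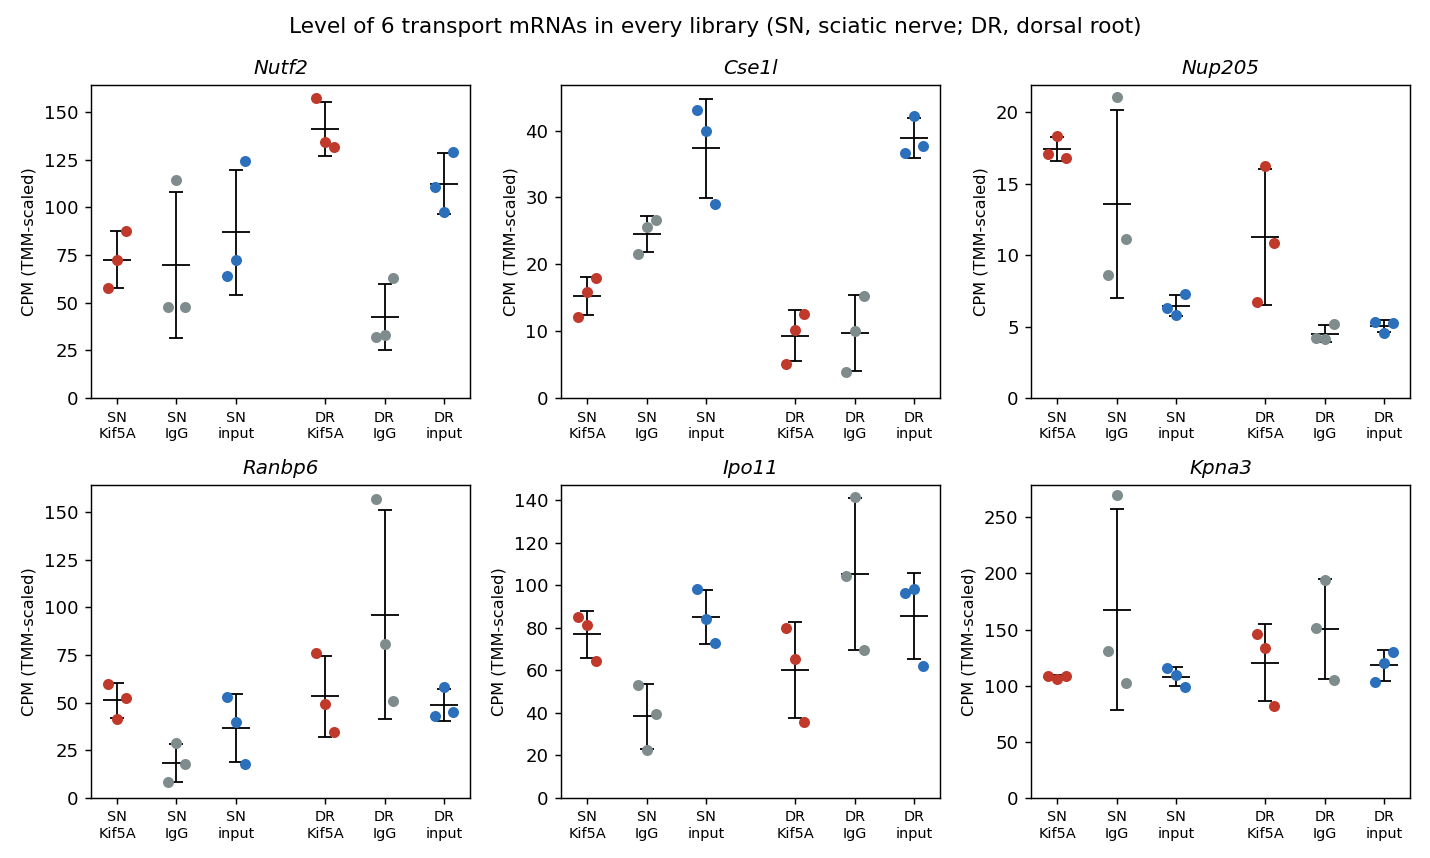
CPM of 6 members in each of the 18 libraries, by tissue and fraction, with the mean and SD of 3 libraries as black marks. For Nutf2 the DR Kif5A points (132 to 158 CPM) lie above all DR IgG points (32.1 to 62.7 CPM), and for Cse1l both precipitates of DR lie below input.

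Among other members in DR, the inner ring nucleoporin Nup205 had 6.71, 16.2 and 10.9 CPM in Kif5A precipitates against 4.23, 4.12 and 5.17 CPM in IgG precipitates. These groups did not overlap, and the log2 ratio was 1.38 ± 0.72 (edgeR adjusted p = 0.959). On the negative side the smallest p-values belonged to Ipo11, with -0.74 ± 0.42 (adjusted p = 0.985), and the importin Ranbp6, with -0.79 ± 0.50 (adjusted p = 1). Both had overlapping groups.

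In SN the ratios of those importins had the other sign. Ranbp6 had 59.7, 41.3 and 52.3 CPM in Kif5A precipitates against 8.45, 28.6 and 17.9 CPM in IgG precipitates, with no overlap. Its log2 ratio was 1.53 ± 0.54 (edgeR adjusted p = 0.579). Ipo11 had 85.0, 81.4 and 64.4 CPM in Kif5A precipitates against 53.0, 22.6 and 39.2 CPM in IgG precipitates, also with no overlap, and a ratio of 1.06 ± 0.42 (adjusted p = 0.671). The tissue differences, SN minus DR, were 2.33 ± 0.76 for Ranbp6 (adjusted p = 0.549) and 1.8 ± 0.61 for Ipo11 (adjusted p = 0.561), and neither passed.

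Nup210l, a relative of the pore membrane protein Nup210, had 290 counts over the SN Kif5A libraries and 3 over the SN IgG libraries, a ratio of 112 with an exact 95% interval of 38.1 to 548 that covers counting error only. In CPM it had 10.4, 1.74 and 4.74 in Kif5A precipitates and 0, 0.142 and 0 in IgG precipitates, while SN inputs held 1.18, 1.47 and 0. The edgeR adjusted p was 0.303 and that of DESeq2 0.00474. Because Nup210l passed the filter on low counts through its SN Kif5A libraries alone, neither value is an even test. The same limit holds for its lack of overlap between Kif5A and IgG in SN. In DR the Kif5A level was 0.777, 1.63 and 0.536 CPM against 1.34, 0.0778 and 1.96 CPM in IgG precipitates, and the groups overlapped. Kpna2 in SN was alike in its low IgG count, with 54 counts in Kif5A and 1 in IgG precipitates, a ratio of 62.8 (10.8 to 2526). In DR, Kpna2 had 8, 20 and 13 counts in Kif5A precipitates against 0, 23 and 31 in IgG precipitates, and the groups overlapped.

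On the negative side in SN, the inner ring nucleoporin Nup155 had 4.93, 17.4 and 8.89 CPM in Kif5A precipitates against 28.3, 82.5 and 20.1 CPM in IgG precipitates, with a log2 ratio of -2.03 ± 0.74 (edgeR adjusted p = 0.621). Nup98 of the central channel had 7.24, 1.37 and 6.14 CPM against 9.36, 58.9 and 3.94 CPM, with -2.25 ± 1.14 (adjusted p = 0.805). In both, IgG replicate 2 was the highest library. Without it the log2 ratio was -1.17 for Nup155 and -0.39 for Nup98.

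Members whose 3 Kif5A libraries all lay above or all below the 3 IgG libraries were as follows. In SN there were 4 of 42 above (Ipo11, Ipo13, Nup210l and Ranbp6), where 8.77% of all genes were, and 2 below (Cse1l and Nup155), where 7.06% were. In DR there were 2 of 40 above (Nup205 and Nutf2), where 7.96% of all genes were, and 0 below, where 5.45% were. These shares were near those of all genes.

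**Figure D3:**
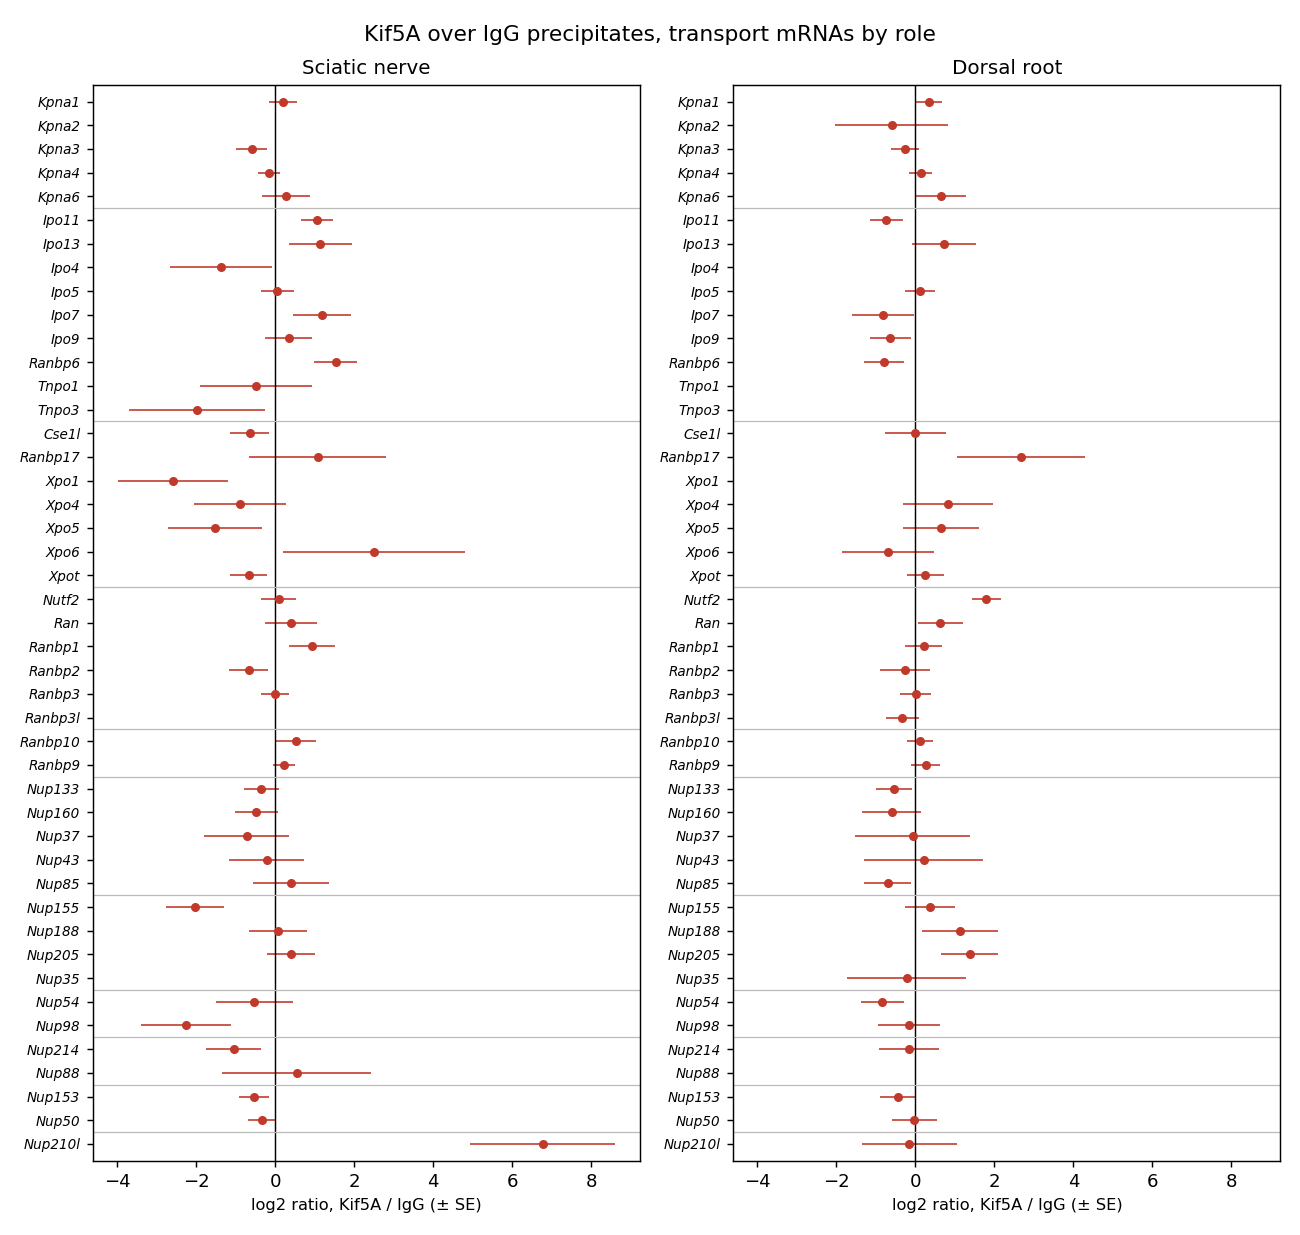
Log2 ratio of Kif5A over IgG precipitates with its SE for each member tested, grouped by role from importin alphas at the top to the membrane nucleoporin at the bottom, in SN and DR. The members' quartiles lie at -0.66 and 0.40 in SN and at -0.46 and 0.36 in DR; Nutf2 at 1.79 in DR has a narrow error, and Nup210l at 6.78 in SN rests on 3 IgG counts and depends on the prior count.

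Ipo4 and Tnpo3 had no count in any of the 3 DR IgG libraries. In single DR IgG libraries 10.3% to 14.5% of all genes had none, and the share with none in all 3 was not counted. Neither Ipo4 nor Tnpo3 passed the filter for Kif5A against IgG in DR, so neither was tested there. The bounds below use summed counts and leave out the spread between libraries. For Ipo4, 35 counts in DR Kif5A precipitates made it at least 9.66-fold higher than IgG, and 40 counts in DR inputs made IgG at least 12.6-fold lower than input, with 3 counts over the group as the floor. For Tnpo3, 10 counts made Kif5A at least 2.76-fold higher than IgG, and 94 counts made IgG at least 29.7-fold lower than input. Xpo1 had 75 counts in DR Kif5A and 3 in DR IgG precipitates, a ratio of 20.7 (6.82 to 103). In SN, Xpo1 had 0.304, 1.33 and 0.0585 CPM in Kif5A precipitates against 3.34, 1.09 and 6.32 CPM in IgG precipitates. For the tissue difference Xpo1 had an edgeR adjusted p of 0.492.

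Over the whole test of the tissue difference, 0 of 41 members passed in edgeR's test, and 2 of 12551 genes did (0.0159%). The unadjusted p was under 0.05 for 4 members with the larger ratio in SN and 3 with the smaller, or 17.1% of the members tested. Of all genes, 460 had the larger ratio in SN and 340 the smaller at that level, or 6.37%. DESeq2 called 1 member, Nup210l, and 187 genes (1.49%). The SN ratio of Nup210l rests on 3 IgG counts. The members' median difference was -0.21 and that of all genes 0.01 on the log2 scale.

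In the authors' deposited table, which tests each transcript, 6 of 57 member transcripts had a false discovery rate under 0.05 for Kif5A against IgG in SN, among 1278 of 19096 transcripts of all genes (6.69%), and all 6 had positive fold changes. In DR there were 3 of 57, among 1398 of 21207 (6.59%), again all positive, from Ipo4, Nutf2 and Ran. The SN transcripts belong to Cse1l, Kpna2, Kpna6, Nup188, Nup210l and Ranbp1. Some are minor: the listed Cse1l transcript, Cse1l-202, is a retained-intron one that held 2.16% of the gene's SN counts, and that of Kpna6 held 0.611%. The main Cse1l transcript had a log2 fold change of -0.79. The Cse1l, Kpna6, Nup188 and Ranbp1 transcripts called had 0 counts in the SN IgG libraries, Kpna2 had 1 and Nup210l had 3. In the DR IgG libraries Ipo4 had 0 counts and the Ran transcript had 3, while Nutf2 had 478, 422 and 1056. The share of positive calls over all transcripts was not counted.

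The comparison with input asks how the precipitates differ from input axoplasm of the same tissue. In DR, Cse1l fell in Kif5A precipitates. It had 5.16, 10.2 and 12.6 CPM in DR Kif5A precipitates, against 36.6, 42.2 and 37.7 CPM in DR inputs, and the groups were far apart. The log2 ratio was -2.05 ± 0.35 (SE), with an edgeR adjusted p of 0.0451. It was the only member past the threshold of 41 tested, where 292 of 13904 genes, or 2.1%, passed, with 1.24% of all genes passing as lower. These were 119 higher and 173 lower genes, and with library size alone in place of TMM they were 989 higher and 190 lower. The call was lost when all 9 DR libraries were fitted together (edgeR adjusted p = 0.404) and with the replicate number as a block (edgeR adjusted p = 0.0718). It was also lost in 5 of 6 fits without a single library, and in those 6 fits the ratio stayed between -2.36 and -1.77. Over all alternatives the adjusted p ran from 7.15e-06 (DESeq2) to 0.404.

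The IgG precipitates were low in Cse1l as well, with 3.89, 9.95 and 15.3 CPM in DR and a log2 ratio to input of -1.96 ± 0.56 (edgeR adjusted p = 0.140). Kif5A and IgG precipitates of DR overlapped, with a ratio of 0.00 ± 0.77 between them. In SN, Cse1l had 12.2, 15.8 and 17.9 CPM in Kif5A precipitates, 21.5, 25.6 and 26.6 CPM in IgG precipitates and 43.1, 40.0 and 29.0 CPM in inputs. The fractions did not overlap there, and the ratio of Kif5A to input was -1.29 ± 0.37 (adjusted p = 0.447).

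Other members in DR came close to the threshold. Nup85 of the Y complex, the outer ring of the pore, had 20.3, 15.1 and 13.6 CPM in Kif5A precipitates against 5.08, 4.56 and 8.81 CPM in inputs (log2 ratio 1.41 ± 0.39, edgeR adjusted p = 0.0720). Ranbp3, a cofactor of Xpo1, had 96.7, 131 and 101 CPM against 38.5, 55.3 and 72.6 CPM (0.99 ± 0.27, adjusted p = 0.0735). In DR IgG precipitates Nup85 had 24.6, 46 and 12.4 CPM, all above input, with a log2 ratio to input of 2.24 ± 0.66 (edgeR adjusted p = 0.145). Those counts were not of like kind: the coding Nup85-201 had 249, 461 and 3 counts in the DR IgG libraries against 69, 68 and 121 in inputs, and IgG replicate 3 held 104 and 102 counts of the processed transcripts Nup85-206 and Nup85-208. Ranbp3 had 175, 99.6 and 67.1 CPM in DR IgG precipitates, which overlapped input, with 1.10 ± 0.43 (adjusted p = 0.230). The retained-intron Tnpo3 had 0.222, 0.0582 and 0.268 CPM in Kif5A precipitates against 1.62, 0.782 and 3.75 CPM in inputs (-3.42 ± 0.94, adjusted p = 0.0720). Tnpo3 passed the filter on low counts through its input libraries alone, so its p-value and its lack of overlap are not an even test.

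Without DR Kif5A replicate 3, the DR Kif5A library lowest in nuclear-retained RNA, 6 of 43 members passed and 2735 of 14154 genes. DESeq2 called 7 members and 1724 genes (12.4%). At an unadjusted p under 0.05 there were 6 higher and 4 lower members, or 24.4%, against 23.5% of all genes. By non-overlap, 8 of 41 members lay above input (Ipo13, Ipo9, Nup205, Nup50, Nup85, Nutf2, Ranbp10 and Ranbp3), where 15.2% of all genes did, and 4 below (Cse1l, Nup153, Nup160 and Tnpo3), where 15.2% did. The members' median log2 ratio of Kif5A over input in DR was 0.08 and that of all genes 0.05.

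In SN, 0 of 42 members and 0 of 12867 genes (0%) passed for Kif5A against input in edgeR's test, and the unadjusted p was under 0.05 for 4 higher and 2 lower members, or 14.3%, and for 677 higher and 579 lower genes of all, or 9.76%. With the replicate number as a block, a pairing read from the data and not given by the labels, 0 members and 4 genes passed. DESeq2 called 2 members, Nup205 and Cse1l, and 160 genes (1.24%). Nup205 had 17.1, 18.4 and 16.8 CPM in Kif5A precipitates against 6.26, 5.81 and 7.24 CPM in inputs, a narrow and separate pair of groups with a log2 ratio of 1.43 ± 0.43 (edgeR adjusted p = 0.454). IgG precipitates held 8.6, 21 and 11.1 CPM of Nup205, also above every input library.

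Nup37 of the Y complex had 2.19, 1.56 and 0.818 CPM in SN Kif5A precipitates against 0, 0 and 0.396 CPM in inputs (edgeR adjusted p = 0.482). It passed the filter on low counts through its Kif5A libraries alone, so this is not an even test. Nup153 had 44.3, 40.2 and 56.5 CPM in Kif5A precipitates against 79.1, 93.8 and 65.2 CPM in inputs (log2 ratio -0.75 ± 0.31, adjusted p = 0.492). Non-overlapping members were 5 of 42 above input (Kpna6, Nup205, Nup210l, Nup37 and Ranbp10), where 8.59% of all genes were, and 4 below (Cse1l, Ipo5, Nup153 and Xpot), where 8.39% were. The members' median was 0.07 and that of all genes 0.04.

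**Figure D4:**
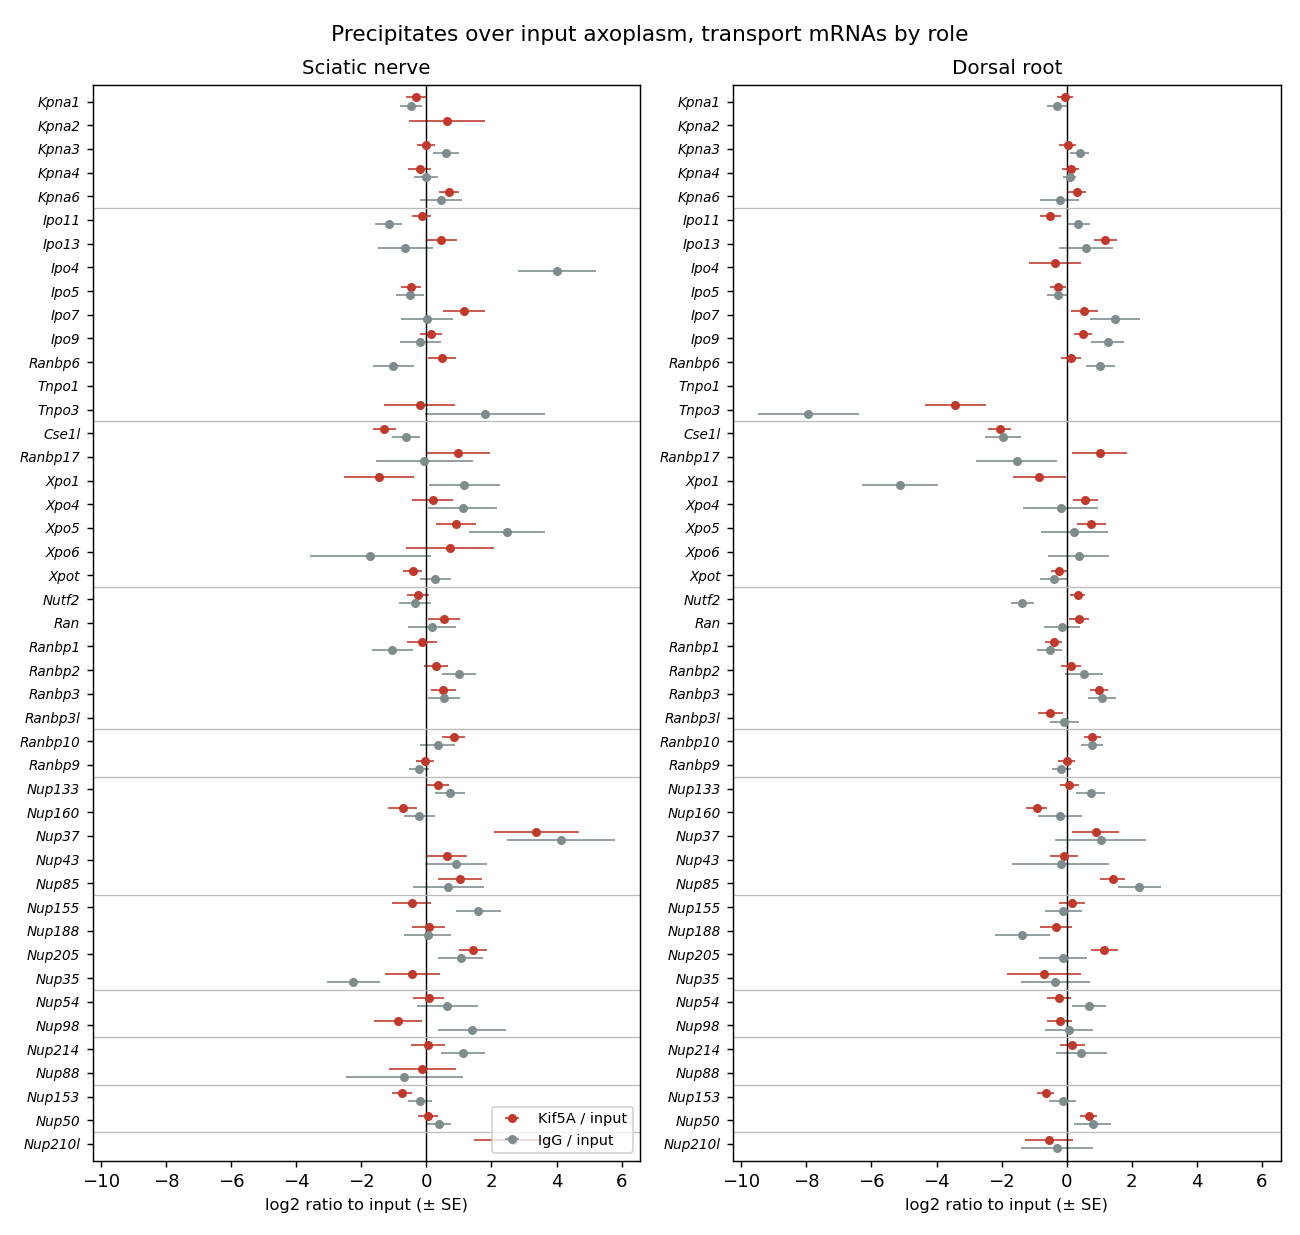
Log2 ratio to input of Kif5A (red) and IgG (grey) precipitates with SE for each member tested, by role, in SN and DR. Cse1l lies left of 0 for both precipitates in DR, at -2.05 and -1.96; ratios of genes with 0 to 3 counts in a group, such as Tnpo3 and Xpo1 in DR IgG, depend on the prior count.

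For IgG against input, which shows what the beads and isotype antibody retain, 0 of 41 members passed in each tissue in edgeR's test, against 8 of 12710 genes in SN (0.0629%) and 0 of 13371 in DR (0%). The unadjusted p was under 0.05 for 2 higher and 2 lower members in SN and for 3 higher and 4 lower members in DR. These were 9.76% of the members in SN, against 14.2% of all genes, and 17.1% of the members in DR, against 18.4% of all genes. By DESeq2 there were 1 member in SN and 5 in DR past the threshold, against 891 genes of all in SN (7.01%) and 1609 in DR (12%). In SN the retained-intron Ipo4 transcript had 2.05, 1.42 and 7.35 CPM in IgG precipitates against 0.177, 0.246 and 0.226 CPM in inputs, with a log2 ratio of 4.01 ± 1.19 (adjusted p = 0.169). Nup37 had 4.14 ± 1.67 (adjusted p = 0.320), Ipo11 -1.16 ± 0.42 (adjusted p = 0.265) and Nup35 -2.24 ± 0.82 (adjusted p = 0.267). In DR, Xpo1 had 3 counts in IgG precipitates and 120 in inputs (edgeR adjusted p = 0.0906). Ipo4 and Nup37 passed the filter on low counts through IgG libraries alone, and Nup35 and Xpo1 through inputs alone. Their p-values are thus not even tests. Without DR IgG replicate 3, 7 of 42 members and 2591 of 13816 genes passed the threshold. The Kif5A and IgG ratios share their input libraries.

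Kpna3 and Ranbp9 are examples of abundant members with ratios to input near 0. Kpna3 had 109, 106 and 108 CPM in SN Kif5A precipitates, 131, 270 and 102 CPM in SN IgG precipitates and 116, 109 and 99.1 CPM in SN inputs. Its log2 ratio of Kif5A over input was 0.00 ± 0.24 in SN and 0.04 ± 0.24 in DR. Ranbp9 had -0.04 in SN and 0.00 in DR for the same ratio.

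Of 20 other genes of the pathway that the naming rule leaves out, 16 or 17 were tested in each of the 8 comparisons, and 0 passed in either direction. Kpnb1, importin beta, had 266, 264 and 295 CPM in SN Kif5A precipitates, 177, 246 and 230 CPM in SN IgG precipitates and 274, 268 and 247 CPM in SN inputs. Its log2 ratio of Kif5A over IgG was 0.38 ± 0.25 in SN (edgeR adjusted p = 0.879) and -0.06 ± 0.28 in DR (adjusted p = 1).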

How the data were processed

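RNA-seq counts of 18 libraries in 6 groups were analysed. The deposited tables, 1 per tissue, hold raw counts per Ensembl transcript; edgeR, CASAVA 1.8.2 and build mm10 (GRCm38) are named per the submitters' processing notes. Not given in the sources used here are aligner, counter, strandedness and annotation version, so overlapping genes cannot be told apart. The same tables hold, per the file headers, log2 fold changes and false discovery rates (adjusted p-values) computed by the authors; a few are quoted. Another 42 columns of per-sample values (normalized counts and per-replicate ratios) were not used. Rows with no gene name (0.138% to 0.237% of counts) were left out.

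Counts were summed per gene, over all transcripts of a tissue's table within a tissue and over the 16878 transcripts in both tables between tissues. Only the groups compared entered each fit: edgeR 4.0.16 quasi-likelihood test in R 4.3.3, TMM scaling, filter by group, Benjamini-Hochberg adjustment over all genes, threshold 0.05, two-sided. DESeq2 1.42.0 and other scalings, filters, fits and left-out libraries were alternatives. SE is the log2 ratio over the root of F, and 95% intervals use the fit's degrees of freedom. Intervals of count ratios are exact binomial and cover counting error only. The scripts were tested on simulated data. Replicates are separate pools per the labels. Same-numbered libraries deviated together in every pair for SN Kif5A and input (correlations 0.107, 0.312 and 0.347) and for SN and DR input (0.250, 0.157 and 0.410), which was read from the data. In neither case did each library correlate best with its own number.

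Tested values are named, in each comparison, for members past the threshold (at most 12) and the 2 with the smallest p in each direction; Nutf2 and Cse1l in further comparisons, Ipo11 in the tissue comparison of Kif5A over IgG, and Kpna3 and Ranbp9 were chosen after their values were seen, as was the minimum of 5 or 10 CPM. The members and lists were chosen with earlier results of these data known.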

Additional observations from a re-analysis of the deposited data

How the results depend on the processing

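The main fits called 0 members in every comparison but Kif5A against input in DR. Most alternatives also gave 0 in those comparisons, which says little about how steady a count is. For Kif5A against input in DR, where the main fit called 1 member, most alternatives gave another count. DESeq2 gave 1 member for Kif5A against IgG in DR, 1 in SN and 1 for their difference. It gave 5 for IgG against input in DR and 1 in SN, and 2 for Kif5A against input in SN and 7 in DR. In that comparison, library size alone gave 6 of 41 members and 1179 of 13904 genes. The members' median log2 ratio was then 0.43, where that of all genes moved to 0.41. All 9 libraries fitted together gave 0 members and 1 gene for Kif5A against input in DR. The replicate block gave 0 members and 1 gene of all, with Cse1l at -2.14 (edgeR adjusted p = 0.0718), where the fit without it gave 292 genes. Each of these Kif5A and input libraries correlated best with its own number, a hint from the data and not the design. Library size alone moved the median of IgG against input in DR to 0.15, where that of all genes was 0.32. The replicate block moved the median of Kif5A against IgG to 0.12 in SN and 0.13 in DR, where those of all genes were 0.16 and 0.20; it changed no other member count. Correlations of same-numbered Kif5A and IgG libraries were 0.101, 0.0468 and 0.169 in SN and 0.121, 0.0650 and 0.272 in DR. For DR Kif5A and input they were 0.178, 0.0418 and 0.147. All were positive, and in each comparison the pair of replicate 2 had the lowest.

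Leaving out single libraries gave 0 to 6 members for Kif5A against input in DR (0 to 2735 genes), 0 to 7 for IgG against input in DR (0 to 2591 genes) and 0 to 5 for the inputs (220 to 2538 genes). Medians then ranged from -0.066 to 0.19 for Kif5A against input in DR, from -0.21 to 0.14 for Kif5A against IgG in SN, from -0.13 to 0.10 for IgG against input in DR and from 0.057 to 0.45 in SN. The Nup35 ratio of inputs ran from -1.03 to 0.29, reversed without DR input replicate 2 alone. The difference of Kif5A over IgG between tissues gave 0 to 24 genes, and IgG against input in SN 0 to 1, where all libraries gave 2 and 8.

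For all genes, DESeq2 gave 193 (Kif5A against IgG, DR), 264 (SN), 187 (their difference, against 2 by edgeR), 1724, 160, 1609 and 891 (precipitates against input) and 1061 (inputs, against 503). All 18 libraries in the fit gave 38 for the difference and 180 for the inputs, and the replicate block 0 for the difference and 2 for IgG against input in SN. RLE factors and library size alone gave 4 for the difference, 0 came from summing all transcripts, and library size alone 1179 for Kif5A against input in DR. For IgG against input in SN, all 9 libraries fitted together and transcripts in both tables gave 5. The cause was not tested. The spread between IgG libraries and counts under 10 limit what these data can show.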
